A study of Mus musculus with 17 samples.

Results

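Bone marrow-derived macrophages were ranked by how strongly each RNA-seq library expressed genes of the cell cycle, and the more strongly expressing control libraries were set against the rest across all other genes. The rule took the 10 control libraries of a series of 17, averaged log2(TPM + 1) over Mki67, Top2a, Ccna2, Ccnb1, Cdk1, Birc5, Pcna, Mcm5, Rrm2 and Tyms (the cycle value), and put the 5 highest libraries in a high set and the 5 lowest in a low set. TPM is a transcript abundance scaled to gene length and to an equal sum in each library. The sets were thus chosen by measured expression of those genes. They are not treatments, and values of the ranking genes describe the choice and support nothing. The controls comprised 5 Smad3 wild-type and 5 Smad3-knockout libraries, all of strain C57BL/6J, from marrow cells differentiated with 50 ng/ml of the growth factor M-CSF over 7 days. Smad3 transduces TGF-β signals and regulates transcription. The 7 other libraries, 4 wild-type and 3 knockout, carried the label of TGF-β1 (5 ng/ml for 5 days) and were not ranked. The treatment text is the same on control samples, so the time that controls spent in culture is uncertain. The sources also leave unclear if each library came from a single cell or a population, how the Smad3 gene was altered, or which libraries came from the cells sorted by smooth muscle actin that the design text mentions. Neither animals nor cultures are identified in the labels, and the p-values below therefore cover the variation among libraries alone, part of which may be technical. If a library came from a population, fewer cycling cells and less RNA of these genes per cell cannot be told apart.

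M-CSF is both a survival factor and a mitogen for macrophages, so cultures of marrow-derived macrophages can hold dividing cells. In dividing cells, genes for DNA replication are switched on at the G1/S transition by E2F factors, whereas genes for chromosome segregation and cytokinesis peak in G2 and M, through CCAAT boxes bound by NF-Y and through the cell cycle genes homology region (CHR) bound by the DREAM and MYB-MuvB complexes. A library can thus be high in one program and not in the other.

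The promoters of 4 ranking genes are shown because they hold the elements of both programs. Cdk1 (the kinase that drives entry into mitosis), Ccnb1 (its partner cyclin B1), Mki67 (a coat protein of mitotic chromosomes) and Mcm5 (a subunit of the replicative helicase) are given as the 250 bases before the annotated start, in the direction of transcription, from RefSeq on GRCm38.p6. That build is not the mm9 of the submitters' processing notes. The windows are chr10:69352913-69353162 (minus strand) for Cdk1, chr13:100786487-100786736 (minus) for Ccnb1, chr7:135716380-135716629 (minus) for Mki67 and chr8:75109259-75109508 (plus) for Mcm5. Capitals mark the CHR forms TTTGAA or TTTAAA, the CCAAT box, and the E2F forms TTGGCGC or TTCCCGC, each on either strand.
Cdk1: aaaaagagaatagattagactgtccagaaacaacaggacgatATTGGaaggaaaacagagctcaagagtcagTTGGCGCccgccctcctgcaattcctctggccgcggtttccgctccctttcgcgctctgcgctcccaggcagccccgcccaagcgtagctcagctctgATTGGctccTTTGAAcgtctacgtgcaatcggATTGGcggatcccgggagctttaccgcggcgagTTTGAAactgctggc
Ccnb1: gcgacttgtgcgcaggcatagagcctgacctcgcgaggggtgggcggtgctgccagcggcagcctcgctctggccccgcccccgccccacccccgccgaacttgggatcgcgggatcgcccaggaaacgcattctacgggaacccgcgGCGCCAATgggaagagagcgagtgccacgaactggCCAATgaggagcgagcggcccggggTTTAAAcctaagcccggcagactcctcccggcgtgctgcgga
Mki67: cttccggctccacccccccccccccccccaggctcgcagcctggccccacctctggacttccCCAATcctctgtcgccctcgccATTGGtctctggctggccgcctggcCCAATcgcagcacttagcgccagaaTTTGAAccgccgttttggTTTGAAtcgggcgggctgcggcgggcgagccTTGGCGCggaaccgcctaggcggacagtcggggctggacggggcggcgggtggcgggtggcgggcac
Mcm5: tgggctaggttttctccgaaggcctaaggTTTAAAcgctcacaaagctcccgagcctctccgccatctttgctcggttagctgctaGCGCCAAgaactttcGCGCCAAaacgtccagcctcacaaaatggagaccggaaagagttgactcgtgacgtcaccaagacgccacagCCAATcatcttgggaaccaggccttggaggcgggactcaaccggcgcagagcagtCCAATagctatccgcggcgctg
In Ccnb1, a CCAAT box overlaps an E2F form read on the other strand. Cdk1 holds TTTGAA at 71 and at 15 bases before the start and Mki67 holds it at 116 and 98, and both also hold an E2F form. Mcm5 holds a pair of E2F forms, CCAAT boxes and TTTAAA. Neither Mcm5 nor Ccnb1 holds TTTGAA in this window, and the CHR form of Ccnb1 is TTTAAA. Among 60 promoter windows of 300 bases (250 before the start and 50 after it) from the 55 matched genes of a 65-gene mitosis list, 66.7% held TTTGAA, against 17.9% of all 32851 windows, and 58.3% held both TTTGAA and CCAAT, against 6.95%. Of 28 windows from 24 matched genes of a 32-gene replication list, 57.1% held an E2F form and 17.9% TTTGAA; an E2F form was in 18.3% of the mitosis windows and 6.81% of all windows. These matches describe letters and show no binding.

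The high set held WT 5 (cycle value 7.75), KO 1 (7.56), WT 2 (7.40), WT 4 (6.65) and KO 3 (6.43), where WT and KO with a number are the control libraries as labelled. The low set held KO 4 (6.09), KO 2 (5.75), WT 1 (4.82), KO 5 (4.81) and WT 3 (3.96). The libraries on either side of the division, KO 3 and KO 4, differed by 0.34, less than the spread within either set (SD 0.58 and 0.85, n = 5 each). Both genotypes lay in both sets, with 3 wild-type and 2 knockout libraries in the high set. All 7 TGF-β1 libraries lay above the median of the high set, between 7.58 and 8.73, and 6 of them above WT 5.

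**Figure D1:**
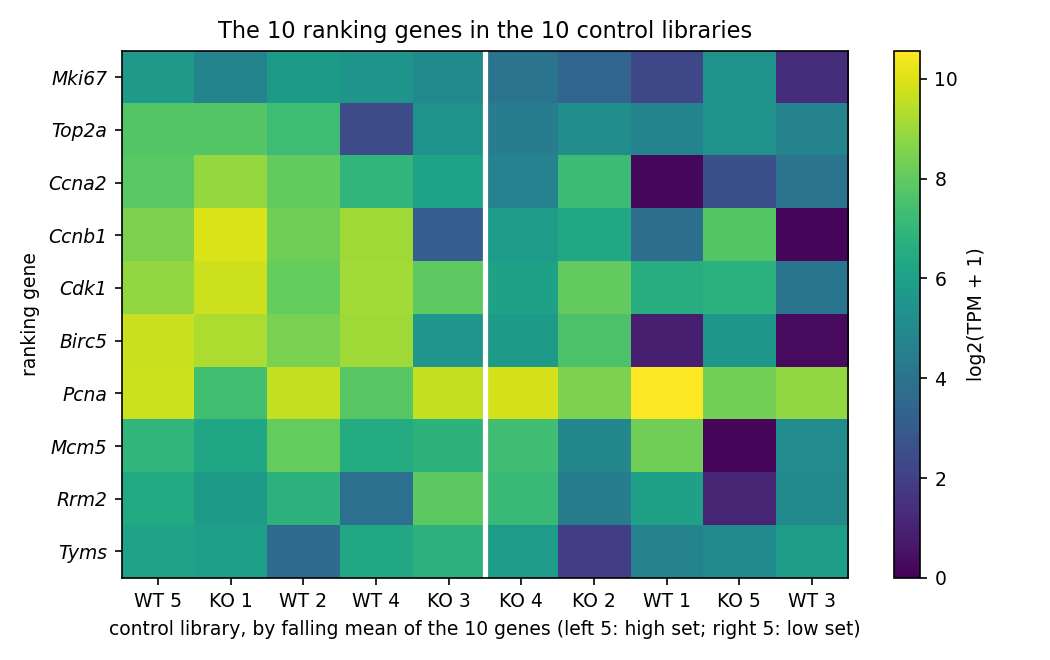
Log2(TPM + 1) of the 10 ranking genes (rows) in the 10 control libraries (columns, WT wild type, KO Smad3 knockout), ordered by cycle value, with the white line between the high set (left) and the low set (right). Cdk1 runs from 854.5 TPM in KO 1 to 16.31 TPM in WT 3, whereas Pcna has its highest value, 1511 TPM, in WT 1 of the low set.

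The 4 markers fixed for cycling cells (Mki67, Top2a, Ccna2, Cdk1) are all ranking genes, so their mean was set by the rule and does not check the label. Each was detected in both sets and overlapped between them. Cdk1 (ENSMUSG00000019942) was at 460.2, 854.5, 268.2, 543.8 and 245.2 TPM in WT 5, KO 1, WT 2, WT 4 and KO 3, and at 64.88, 256.5, 95.4, 106.9 and 16.31 TPM in KO 4, KO 2, WT 1, KO 5 and WT 3; library values below keep this order. KO 2 of the low set thus lay above KO 3 of the high set. Mki67 was at 51.36, 25.92, 53.74, 43.0 and 31.46 TPM in the high set and at 15.5, 9.85, 3.94, 40.38 and 1.61 TPM in the low set, where KO 5 was close to the high libraries. Top2a, the topoisomerase that untangles replicated chromosomes, had its lowest value of all 10 libraries, 4.41 TPM, in WT 4 of the high set.

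Of the 10 ranking genes, 9 had a positive difference (high minus low, mean log2(TPM + 1)), with a median of 1.90 and no gene whose sets failed to overlap. Birc5 (survivin, of the chromosomal passenger complex) had the largest at 4.36 ± 1.22 (SE), Ccna2 (cyclin A2) 3.80 ± 0.99 and Ccnb1 3.0 ± 1.32. Pcna, the sliding clamp of DNA polymerase, was the exception at -0.39 ± 0.52, with 872.4, 165.1, 773.0, 223.3 and 772.5 TPM in the high set and 936.0, 351.3, 1511, 325.5 and 463.3 TPM in the low set. Pcna was therefore not lower on average in the libraries placed low.

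Mitosis genes that the ranking did not use separated the sets far more than replication genes did. These genes belong to the programs that chose the sets, in the same libraries, so they are given with no test. Birc5, Ccnb1 and Cdk1, which act in mitosis, were among the ranking genes that differed most, whereas the replication genes Pcna and Mcm5 differed less. Top2a differed by 1.23, less than Mcm5 at 1.77. Whether the choice of sets itself favoured the mitosis list over the replication list was not tested. Of 65 further mitosis and cytokinesis genes, 64 were higher on average in the high set, with a median difference of 2.98; 45 differed by 2 or more and 11 had all high libraries above all low ones. Over the 10753 other genes compared, 53.9% were higher, the median was 0.07 and 0.66% had all high libraries above all low ones. The replication list had 21 of 32 higher, a median of 0.47 and no gene without overlap, and only 2 members differed by 2 or more. Chromatin and tubulin genes of proliferating cells had 22 of 24 higher (median 0.97), S-phase DNA repair and checkpoint genes 14 of 19 (0.84), nucleotide supply genes 10 of 18 (0.40) and G1/S regulators 11 of 21 (0.17). Leaving out 1 library moved the replication median to between 0.23 (without KO 3) and 0.69 (without KO 4). The nucleotide supply median was -0.19 without KO 5, and that of the G1/S regulators reached -0.33, so neither of those lists kept its direction. The repair and checkpoint median ran from 0.47 without WT 3 to 1.43 without WT 4 and was 0.074 in wild-type libraries alone.

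Cenpa, the histone variant that marks centromeres, differed most. It was at 205.8, 415.4, 339.8, 288.9 and 36.25 TPM in the high set and at 7.09, 0.68, 0.86, 133.7 and 0.05 TPM in the low set, a difference of 5.28 ± 1.14. KO 5 was the low library within the high range. Nek2, a kinase that splits centrosomes, was at 31.6, 77.43, 58.82, 53.26 and 26.55 TPM and at 3.54, 0.06, 0.23, 0.07 and 0.03 TPM (5.01 ± 0.95), with no overlap. Ect2, which activates RhoA for the cleavage furrow, was at 80.8, 134.5, 10.72, 89.25 and 8.76 TPM against 0.01, 0.18, 0.03, 7.61 and 0.01 TPM (4.67 ± 1.13), and the condensin subunit gene Ncaph differed by 4.53 ± 1.09 with KO 4 (12.74 TPM) above KO 3 (10.11 TPM). The other mitosis genes without overlap, named after their values were seen, were Mad2l1, Cenpe, Kif2c, Tpx2, Ube2s, Ckap2l, Smc4, Ncapd2 and Ncapg. They include a spindle checkpoint protein (Mad2l1), motors of the kinetochore and spindle (Cenpe, Kif2c), a spindle assembly factor (Tpx2) and condensin subunits (Smc4, Ncapd2, Ncapg). Smc2, which pairs with Smc4, was the 1 mitosis gene with a negative difference (-0.44), being at 1.0 TPM in a high library and between 77.42 and 125 TPM in the low set.

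Within the replication list, Dbf4, the activator of the Cdc7 kinase that fires origins, had the largest difference (2.43 ± 1.23), at 7.17, 64.02, 27.45, 25.07 and 0.2 TPM against 10.66, 3.72, 0.33, 0.31 and 0.1 TPM. Gins3 and Gins1, subunits of the GINS complex of the helicase, differed by 2.10 ± 1.32 and 1.75 ± 1.02, and Rfc5, of the clamp loader, by 1.96 ± 0.97. The sets overlapped for all of these. In nucleotide supply, the mitochondrial serine hydroxymethyltransferase gene Shmt2 differed by 3.77 ± 1.21 and its cytosolic relative Shmt1 by 2.02 ± 1.34, while the purine synthesis genes Gart (-2.63 ± 1.05) and Paics (-1.85 ± 1.03) went the other way. Gart was at 0.05, 94.29, 23.92, 1.25 and 21.78 TPM in the high set and between 41.7 and 94.77 TPM in the low set.

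Among G1/S regulators, Cdc25a (the phosphatase that activates Cdk2) differed by 2.19 ± 1.28, and Ccne2 (cyclin E2), Ccnd1 (cyclin D1) and Uhrf1 (a maintenance factor of DNA methylation) by -1.96 ± 1.56, -1.69 ± 0.75 and -1.64 ± 1.16. Ccnd1, which couples growth factor signals to the cycle, was at 52.54, 213, 6.47, 101.3 and 73.72 TPM in the high set and 73.1, 290.5, 141.7, 150.2 and 491.2 TPM in the low set. Myc, a growth regulator, differed by only 0.36 ± 0.51. In the repair list, Clspn and Chek1, of the replication checkpoint, differed by 3.45 ± 1.21 and 2.74 ± 1.13, Fancd2, of crosslink repair, by 3.09 ± 1.10, and Pclaf, a partner of Pcna, by 2.81 ± 0.84. Pclaf was at 127.7, 79.45, 115.9, 100.8 and 115 TPM against 44.86, 20.81, 55.48, 9.86 and 0.39 TPM, with no overlap. Among chromatin genes, H2afv and H2afx, histone variants, differed by 3.64 ± 1.14 and 2.44 ± 0.67, the lamin gene Lmnb2 by 1.95 ± 1.02, and Hmgb2, a chromatin protein, by 2.09 ± 0.54 with no overlap (57.64 to 174.2 TPM against 13.13 to 44.12 TPM).

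Library by library, the order for mitosis genes was not that for replication genes. The mean log2(TPM + 1) of the mitosis list was 5.99, 6.50, 6.06, 5.43 and 3.67 in the high set and 3.11, 3.56, 1.93, 3.98 and 1.17 in the low set. That of the replication list was 4.60, 3.96, 5.27, 3.61 and 5.65, and 5.14, 3.32, 5.21, 3.30 and 4.07. KO 3 had the highest replication mean of the controls and a mitosis mean below that of KO 5 in the low set. WT 1 and KO 4 of the low set had replication means above WT 5, KO 1 and WT 4 of the high set. The libraries of the low set thus differed in how the means of these lists stood to each other, which was not tested. KO 5 and KO 2 had the lowest replication means of the controls and the highest mitosis means of the low set, whereas WT 1 had a high replication mean and a mitosis mean of 1.93.

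**Figure D2:**
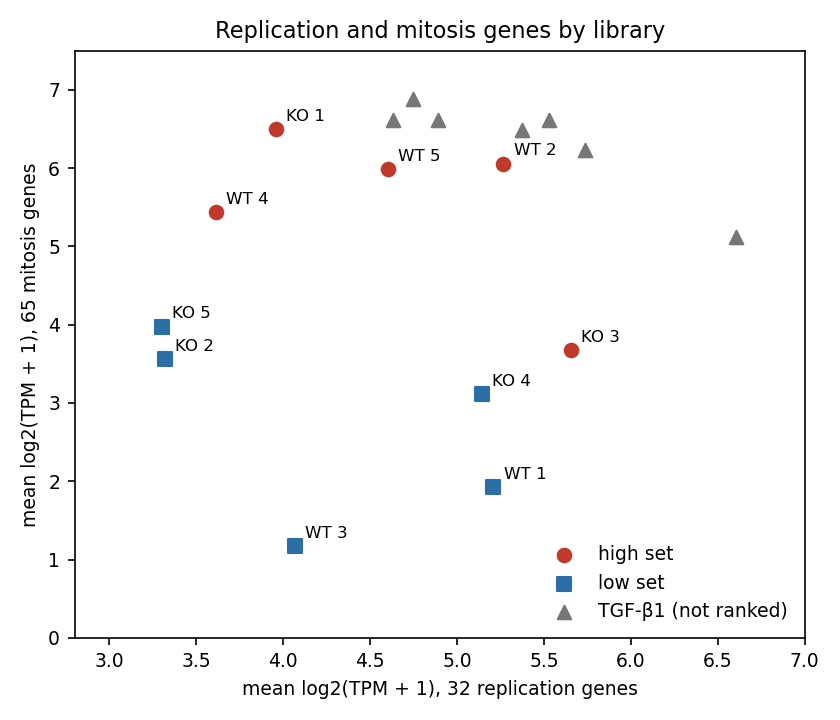
Mean log2(TPM + 1) of the 32 replication genes (x axis) and of the 65 mitosis genes outside the ranking (y axis), 1 point per library: high set (circles), low set (squares) and TGF-β1 libraries, not ranked (triangles). The high set without KO 3 lies between 5.43 and 6.50 on the mitosis axis and all low libraries at or below 3.98, whereas on the replication axis both sets spread over the same range, 3.61 to 5.65 and 3.30 to 5.21.

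The list medians were unequal between the genotypes, a difference that was not tested for lists. In cycle value, the wild-type libraries ran from 6.65 to 7.75 in the high set and from 3.96 to 4.82 in the low set. The knockout libraries ran from 6.43 to 7.56 and from 4.81 to 6.09, so their sets lay closer together. Medians within 1 genotype, here and below, thus do not compare the genotypes at equal differences of cycle value. In the 5 wild-type libraries alone the median of the mitosis list was 4.33, and in the 5 knockout libraries alone it was 1.28, with 63 of 64 and 56 of 65 members higher; the replication medians were -0.10 and 0.66. For the genes outside the cell cycle lists the difference between genotypes was tested as an interaction in limma: 0 of 10753 passed at an adjusted p under 0.05, and 469 had an unadjusted p under 0.05. The genotype rests on the labels. Smad3 (ENSMUSG00000032402) was at 11.54, 0, 0.01, 15.38 and 1.93 TPM in the high set and at 0, 0.27, 0, 0 and 0 TPM in the low set, so it was at or near 0 in 3 of the 5 libraries labelled wild type and above 1 TPM in 1 labelled knockout.

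Outside the cell cycle lists, no gene passed the test after adjustment. With limma on log2(TPM + 1), 0 of 10753 genes were higher and 0 lower at a Benjamini-Hochberg adjusted p under 0.05 (0% in each direction), and the smallest adjusted p was 0.474. An unadjusted p under 0.05 was reached by 583 genes (5.42%), 370 higher (3.44%) and 213 lower (1.98%). All high libraries lay above all low ones for 71 genes (0.66%) and below them for 29 (0.27%). No alternative setting gave a call either. Expression had chosen the sets, so such a p says only whether a gene outside the ranking differed between them.

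**Figure D3:**
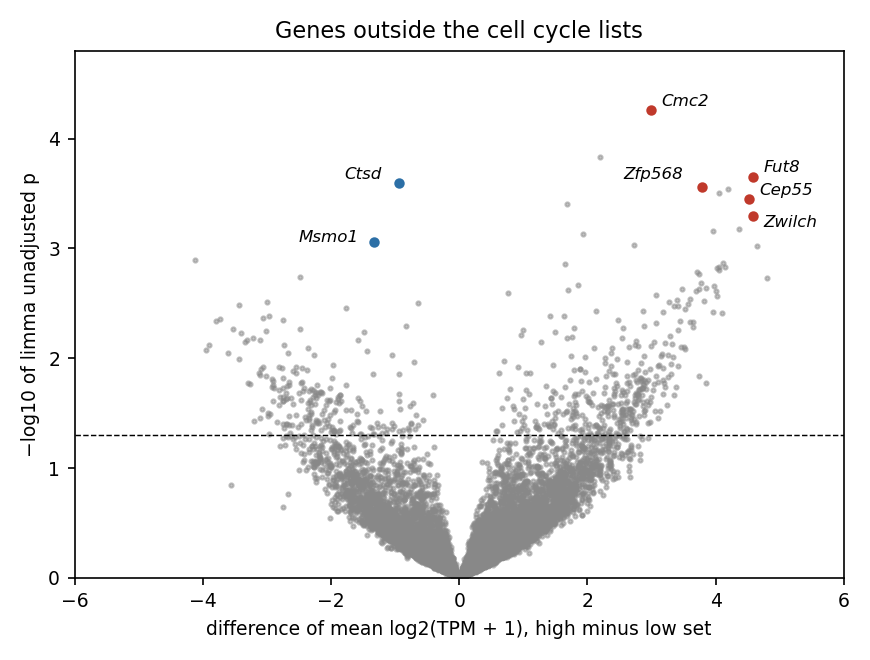
Each of the 10753 tested genes outside the cell cycle lists by its difference of mean log2(TPM + 1), high minus low set (x axis), and −log10 of its unadjusted limma p (y axis), with the dashed line at 0.05. No gene passed after adjustment; Cmc2 has the smallest p and, among the named lower genes, Ctsd.

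The following genes were named because their libraries did not overlap, and none passed the test. Cmc2 (ENSMUSG00000014633), which encodes a mitochondrial protein of cytochrome oxidase assembly, was at 92.8, 93.11, 87.92, 149.5 and 70.61 TPM in the high set and at 8.66, 7.97, 17.34, 15.05 and 9.27 TPM in the low set. The difference was 3.0 ± 0.55 (SE; limma adjusted p = 0.474), with a wide gap between the groups. Cep55, the scaffold of the midbody during abscission, was at 61.43, 144.9, 77.06, 122.2 and 13.78 TPM against 8.91, 0.13, 7.74, 0.96 and 0.07 TPM (4.52 ± 1.00, adjusted p = 0.474). Zwilch, a kinetochore protein of the spindle checkpoint, was at 44.1, 46.93, 54.05, 160.6 and 29.08 TPM against 22.36, 0, 0.33, 1.38 and 0 TPM (4.58 ± 1.05, adjusted p = 0.549). Both are mitosis genes that the fixed lists did not contain, so they are not measures apart from the cycle.

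Stk16, a membrane-associated kinase, was at 128, 127, 126.3, 98.68 and 151.6 TPM against 61.05, 38.29, 20.24, 18.82 and 38.56 TPM (1.92 ± 0.46, adjusted p = 0.608), moderately expressed in every control library. Fut8, the core fucosyltransferase of N-glycans, was at 24.08, 10.9, 40.6, 86.66 and 7.38 TPM and at no more than 0.05 TPM in the low set (4.59 ± 0.97), and the zinc finger gene Zfp568 was at 7.04 to 25.14 TPM and at no more than 0.05 TPM (3.79 ± 0.82; adjusted p = 0.474 for both). Ankle1, Tnfrsf23, Tmem185a, Apoo, Tsen54 and Pigh also had no overlap, with differences of 4.37, 3.96, 4.11, 4.06, 4.02 and 3.71 and adjusted p of 0.608 to 0.729. Each of these 6 genes had a low library at no more than 0.07 TPM.

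On the lower side, the genes without overlap included Msmo1, 1 of 20 cholesterol synthesis genes, and Ctsz, 1 of 27 lysosomal genes; the other members of both lists overlapped in that direction. Msmo1 (ENSMUSG00000031604) encodes the sterol demethylase of the pathway and was at 125.2, 106.7, 87.78, 106.7 and 88.5 TPM in the high set and at 213.3, 239.7, 221.8, 240.5 and 425.6 TPM in the low set (-1.33 ± 0.33, adjusted p = 0.638). Erg28, the homologue of a yeast scaffold for the same demethylation step, was at 17.03 to 56.74 TPM against 79.47 to 115 TPM (-1.48 ± 0.46). Ctsz, the lysosomal protease cathepsin Z, was at 640.8, 1279, 1265, 1736 and 1663 TPM against 1838, 2053, 2274, 2615 and 2324 TPM (-0.82 ± 0.25, adjusted p = 0.772). Ctsd (ENSMUSG00000007891), cathepsin D, had the smallest unadjusted limma p among the named genes on this side (0.000253, adjusted p = 0.474). Ctsd was at 4365, 5548, 5633, 4442 and 9270 TPM against 8631, 12630, 9931, 11660 and 11720 TPM (-0.94 ± 0.20). Its sets overlapped through KO 3, the library nearest the low set in cycle value.

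Akr1a1, an aldehyde reductase, was at 1289, 1827, 1304, 1279 and 1732 TPM against 2375, 2483, 2207, 2197 and 2163 TPM (-0.64 ± 0.18, adjusted p = 0.741), a narrow and evenly placed difference. Sertad2, a transcriptional co-regulator, was at 0.74, 14.74, 15.07, 0 and 2.22 TPM against 18.11, 81.17, 60.16, 31.88 and 64.58 TPM (-3.43 ± 0.99, adjusted p = 0.741). Slfn5, Gamt, Wdr36, Isyna1, Lat2, Vkorc1l1 and Dimt1 also had no overlap, with differences of -3.02, -3.41, -3.35, -2.74, -0.70, -2.55 and -2.60 and adjusted p of 0.772 to 0.837. Each of these genes except Lat2 had a high library listed at 0. The sets of Slfn5 were kept apart only by 0.17 TPM in WT 2 against 0.26 TPM in KO 5.

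**Figure D4:**
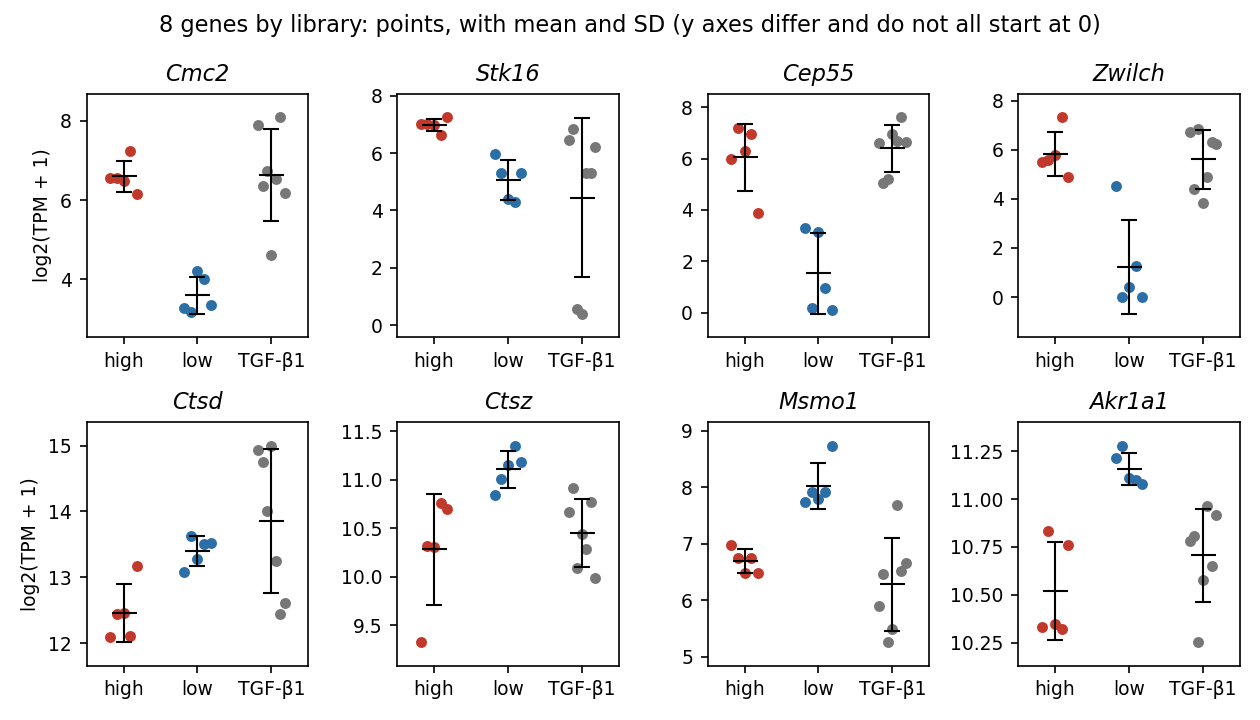
Log2(TPM + 1) of 8 genes in the high set (5 libraries), the low set (5) and the TGF-β1 libraries (7), 1 point per library with mean and SD; the y axes differ and do not all start at 0. The high and low points do not overlap except for Ctsd, and the TGF-β1 points of Ctsd spread from 5591 to 32750 TPM.

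As whole lists, the cholesterol synthesis, lysosomal and pan-macrophage genes had negative medians, and none of their members passed. The lysosomal and pan-macrophage lists are not separate, because both hold Ctsd. Of 20 cholesterol synthesis genes 6 were higher and 14 lower, with a median of -0.51 and 4 genes at an unadjusted p under 0.05, which 5.42% of all genes tested reached. Nsdhl, Idi1, Lss and Mvd, enzymes of the pathway, differed by -3.74 ± 1.13, -2.51 ± 1.14, -2.44 ± 1.34 and -2.07 ± 1.44. The list's median was -1.65 in wild-type libraries alone, -1.19 without KO 2, -0.82 without WT 5, -0.31 without WT 1, -0.29 without WT 3 and 0.32 in knockout libraries alone, where 11 of 19 were higher. Of 27 lysosomal genes 21 were lower (median -0.22; 0.04 in knockout libraries alone). Ctsl, cathepsin L, went against that list at 1.20 ± 0.54, with 5241, 1759, 2990, 4096 and 1834 TPM against 769.7, 875.8, 1604, 6594 and 449.3 TPM, and Man2b1, lysosomal alpha-mannosidase, differed by -0.84 ± 0.50.

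**Figure D5:**
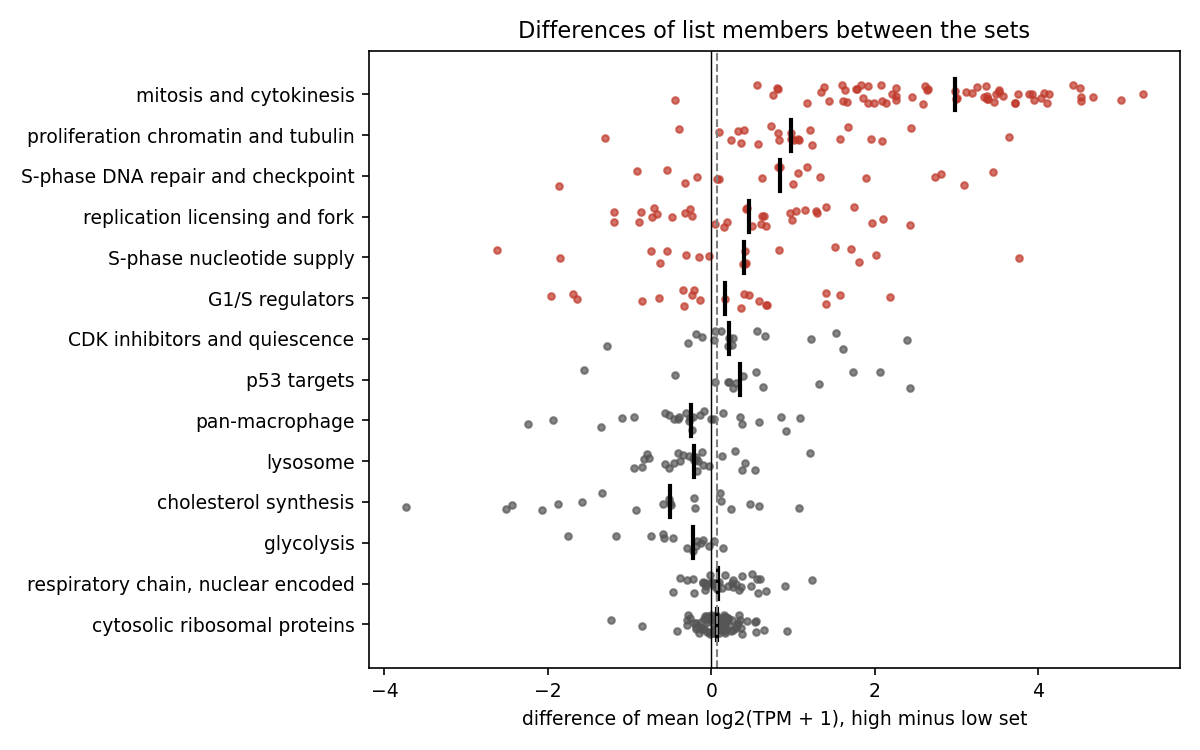
Difference of mean log2(TPM + 1), high minus low set, for each member (points) of 14 gene lists (rows), with the list's median as a black bar, a solid line at 0 and a dashed line at the median of all genes tested (0.07). Red points are cell cycle lists, which no test was applied to; the mitosis list lies farthest to the right, with a median of 2.98.

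The macrophage markers Adgre1, Cd68, Csf1r and Itgam were detected in every control library, whereas C1qa was at or near 0 in libraries of both sets. Of 26 pan-macrophage genes 18 were lower (median -0.25), none passed and 4 had an unadjusted p under 0.05, against 5.42% of all genes tested. Leaving out 1 library moved that median to between -0.41 (without KO 3) and -0.14 (without KO 5). Adgre1, which encodes F4/80, was at 103, 119.9, 25.4, 112 and 88.21 TPM in the high set and at 203.4, 160.7, 326.5, 327.8 and 98.74 TPM in the low set (-1.35 ± 0.49, adjusted p = 0.837); only WT 3 of the low set lay within the high range. Cd68 differed by -0.57 ± 0.25, Csf1r, the M-CSF receptor, by -0.26 ± 0.36 and Itgam, the CD11b integrin chain, by 0.58 ± 0.84. Fcgr1, an Fc receptor, differed by -2.25 ± 1.13 and was at 0.04 TPM in KO 1. C1qa, a complement gene, differed by -1.94 ± 1.46. It was at 58.73, 0, 0.65, 0.05 and 0.34 TPM against 32.2, 44.56, 0.71, 0.05 and 41.57 TPM. Apoe differed by 1.09 ± 1.97 through 1 library, WT 4 at 2053 TPM. Of 18 genes for macrophage transcription factors and the M-CSF receptor, 11 were higher and 7 lower (median 0.24, 0.02 without WT 1 and -0.13 in wild-type libraries alone), and none passed or had an unadjusted p under 0.05. Maf, one of these transcription factors, went against the direction of that list at -2.29 ± 1.25 (adjusted p = 0.992). It was at 5.46, 0.4, 0.79, 0.09 and 8.17 TPM against 5.87, 35.38, 70.19, 22.6 and 0.06 TPM, so 3 low libraries exceeded every high one.

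Genes for inhibitors of the cycle and quiescence, and p53 targets, were not lower on average in the high set. Of 17 genes for CDK inhibitors and quiescence 13 were higher (median 0.22, and -0.07 without KO 5) and of 14 p53 targets 12 (median 0.34), none passing. An unadjusted limma p under 0.05 was reached by 1 of the 17 and 2 of the 14, against 5.42% of all genes tested. In the list of 17, 1 gene had all high libraries above all low ones, against 0.66% of all genes tested. The p53 median was 0.14 without KO 1 and 0.70 without KO 4. Cdkn1a (p21) was at 600.3, 167.4, 100.9, 307.4 and 244.8 TPM against 318.6, 298.3, 372, 93.9 and 111.9 TPM (0.21 ± 0.50), and Cdkn1b (p27) differed by 1.22 ± 1.02. Glycolysis genes were lower in 13 of 15 (median -0.22), a median that was -0.33 without KO 4, -0.08 without WT 3 and 0.043 in knockout libraries alone. Mitochondrially encoded genes were lower in 11 of 13 (median -0.16), which ran from -0.31 without KO 2 to -0.013 without KO 1 and turned positive, at most 0.067, in knockout libraries alone and with the ranking by other cell cycle lists. Nuclear-encoded respiratory chain genes were higher in 26 of 38 (0.09) and cytosolic ribosomal protein genes in 53 of 81 (0.06), and both medians turned negative under upper-quartile scaling; that of the ribosomal genes was also -0.037 without KO 5 and -0.14 in wild-type libraries alone. The smooth muscle actin gene Acta2 reached 8.12 TPM in KO 1 and was at no more than 0.09 TPM in the other control libraries.

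Many markers of other cells were listed at 0 throughout, but some were expressed, and their summed levels overlapped between the sets. All 9 erythroid markers were listed at 0 in all 10 control libraries, as were 10 of 12 lymphocyte, 7 of 8 mast cell and basophil, 6 of 11 fibroblast, 8 of 12 neutrophil, 9 of 17 monocyte, 7 of 15 myeloid progenitor, 4 of 10 dendritic cell and 5 of 8 endothelial markers. Their summed level was 1.9 to 134.3 TPM in the high set and 1.15 to 209.2 TPM in the low set for neutrophil markers, and 0.63 to 95.54 against 11.64 to 68.76 TPM for monocyte markers. It was 40.3 to 173.7 against 63.52 to 159.6 TPM for myeloid progenitor markers and 21.17 to 93.5 against 20.15 to 78.46 TPM for endothelial ones. Dendritic cell markers summed to 0.13 to 19.25 and 0.03 to 18.55 TPM, and lymphocyte, fibroblast and mast cell markers to no more than 2.0 TPM in any control library. The part of these cells in the results was not tested. Apart from these lists, 7 genes of MHC class II antigen presentation summed to 2321 TPM in WT 3. Their sum was 6.8 to 19.63 TPM in the other low libraries and 0 to 136.1 TPM in the high set. Detected genes (TPM 1 or more) numbered 8846 ± 996 in the high set and 8683 ± 802 in the low set (SD, n = 5 each; two-sided exact permutation p = 0.81). The share of genes of moderate level (10 to 50 TPM in the other libraries of the group) listed at 0 was 7.31 ± 2.68% and 8.62 ± 3.74% (exact permutation p = 0.54), and it exceeded 10% in WT 4 and KO 2. Without these libraries the mitosis median was 2.96 and the cholesterol median -0.93. The mitochondrially encoded share of TPM was 4.96 ± 0.94% and 5.81 ± 1.38% (exact permutation p = 0.28). Depth is unknown, because TPM keeps none.

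The 7 TGF-β1 libraries, which the ranking had not used, gave a separate measure: the slope of log2(TPM + 1) on the cycle value, with genotype as a term. Of 10021 genes tested, 0 passed (0%) and 780 had an unadjusted limma p under 0.05 (7.78%); 40.1% of slopes were positive. Among the 12 named genes above, 5 slopes were positive and 7 negative, and of the 11 measured among the 12 below, 6 were negative and 5 positive. Cmc2 (slope 2.60 ± 0.68 per unit of cycle value, unadjusted p = 0.00303, adjusted p = 0.627), Zwilch (2.34 ± 0.96, adjusted p = 0.64) and Sertad2 (-4.76 ± 1.79, adjusted p = 0.64) had an unadjusted p under 0.05 in the direction seen in controls. Of the 65 mitosis genes 25 had a positive slope (median -0.31), near the share and the median over the genes outside the cell cycle lists (3815 of 9532, -0.31). Of the replication genes 22 of 31 (0.55) and of the G1/S regulators 19 of 21 (1.19) had a positive slope. Over these 7 libraries the cycle value spanned only 7.58 to 8.73, and its S-phase members Rrm2 (slope 3.36 ± 0.51) and Tyms (2.66 ± 0.78) had the steepest slopes of the ranking genes, whereas Ccnb1 had -1.10 ± 0.64.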

How the data were processed

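RNA-seq of 17 libraries was analysed from the deposited TPM table. The authors used FastQC, Trim Galore and RSEM with build mm9 to obtain TPM, per the submitters' processing notes; versions are not given in the sources used here. Depth is unknown. RSEM divides reads among similar transcripts, so near-identical genes are uncertain. Symbols were found for 32897 of 37620 gene IDs through GENCODE vM21.

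The ranking, the gene lists and the naming rule were chosen with earlier results of these data known. Genes that reached TPM 1 in 3 or more of the 10 control libraries were fitted on log2(TPM + 1), which understates changes of low genes, with limma 3.58.1 in R 4.3.3 (lmFit, eBayes with a trend). Benjamini-Hochberg adjustment ran over the 10753 genes outside the ranking genes and 6 cell cycle lists, which have no test. The procedure was tested on simulated data. No pair of the 45 among control libraries shared more than 1.26% of its values.

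The naming rule takes the ranking genes, up to 12 genes a direction with non-overlapping sets and a mean of 10 TPM or more in 1 set (smallest p first, no clone-type names), from each list the 4 most different members that reach that mean, and Smad3, Acta2, Adgre1, Itgam, Cd68, Csf1r, Maf, Cdkn1a, Cdkn1b, Ccnd1 and Myc. It gave 145 genes. The text names 78 of these, a choice made after the values were seen; 1 gene of the rule's fixed names is not reported here. Motifs and printed promoters were also chosen then. Cdkn2d, Hmgcs1, Ym1 and Gnb2l1 were not matched.

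Alternatives changed the pseudocount, filter, scaling, covariates, ranking and libraries.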

Additional observations from a re-analysis of the deposited data

Results flagged for a closer look

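In 190 groups of 5 libraries, 32 values stood apart from the rest of their set by Dixon's ratio at the 95% level; chance gives about 1 in 20 groups under a normal spread, and TPM values are skewed. Over all 145 genes of the naming rule, 60 values in 290 groups stood apart, so the choice of genes to name left out others.

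In the high set, WT 4 stood apart with a low mean log2(TPM + 1) of the S-phase repair list (1.91) and of the cholesterol list (2.82), and with high TPM of Cmc2 (149.5), Zwilch (160.6) and Apoe (2053). WT 5 was high in C1qa (58.73 TPM) and Itgam (141 TPM), and WT 2 in Mcm5 (267.1 TPM) and, barely above 0, Slfn5 (0.17 TPM). KO 1 was high in Gart (94.29 TPM) and Acta2 (8.12 TPM), and KO 3 in Ccne2 (65.11 TPM) and Ctsd (9270 TPM).

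In the low set, KO 2 stood apart with high TPM of Ccna2 (148.9), Birc5 (192.1), Ankle1 (23.37), Tmem185a (31.66), Slfn5 (58.97) and Smad3 (0.27, near 0), and low TPM of Uhrf1 (16.22). KO 4 was high in Zwilch (22.36 TPM), Cdc25a (11.33 TPM), Nek2 (3.54 TPM), Ncaph (12.74 TPM) and Fancd2 (6.8 TPM). KO 5 was high in Pigh (5.96 TPM), Cenpa (133.7 TPM), Ect2 (7.61 TPM) and Ctsl (6594 TPM). WT 3 was high in Msmo1 (425.6 TPM), Shmt1 (37.3 TPM) and Cdkn1b (13.69 TPM).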

How the results depend on the processing

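The comparison of the sets was fitted 29 times and the TGF-β1 slope 10 times, and none of these fits called a gene; the smallest adjusted p ranged from 0.0654 to 0.999 and from 0.0535 to 0.773. The count at an unadjusted p under 0.05 (583) was 353 in knockout libraries alone and within 1.5 times in the other fits of the sets. Fits within 1 genotype also needed a filter of 2 libraries in place of 3, so 2 choices changed at once. Labels give both genotypes numbers 1 to 5, and each number had 1 high and 1 low library; deviations of same-numbered libraries correlated at -0.07 to -0.01, none was the other's best match, and a fit with the replicate block called 0 genes and gave 542 at an unadjusted p under 0.05. The difference in detected genes (163.4) ran from -55.75 without KO 1 to 557.8 without WT 4 when 1 library was left out, and was -1.6 without KO 2. Scaling moved the median of all genes from 0.07 to -0.05 (quantile) and -0.01 (upper quartile). Ranking by the other cell cycle lists exchanged WT 4 and KO 4 and gave medians of 1.91 for mitosis and 1.05 for replication genes. Both lists belong to those that set this ranking, so these medians describe the choice and are no check. The interaction of set and genotype was added after seeing the data.

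Directions reversed for genes that had not passed the test, and the cause was not tested. With the cycle value as a continuous term Apoe was -0.60 and Itgam -0.16. With the other ranking C1qa was 0.052, Apoe -3.31, Man2b1 0.077 and Csf1r 0.047. Itgam was -0.86 in wild-type libraries alone; in knockout libraries alone Lss was 0.24, Mvd 0.67, Csf1r 0.73 and Cdkn1a -0.036. Without WT 4 and KO 2 Apoe was -1.39 and Itgam -0.11. Leaving out 1 library moved Cdkn1a between -0.13 (WT 5) and 0.51, with a negative value also without WT 3 or KO 5, Apoe between -0.85 (WT 4) and 1.90, and Itgam between -0.20 (KO 2) and 1.05. These are the reversals among the genes the text names, which were picked after the values were seen. Over all 109 tested genes of the naming rule, 92 of 3012 values under alternatives changed sign. For the slopes, measured for 101 such genes, 103 of 900 values did.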
